A study of Vitis vinifera with 2 samples.

Results

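The genes described here are 32 grapevine genes of the flavonoid and anthocyanin pathway, 21 for its enzymes and transporters and 11 for regulators of the MYB, bHLH and WD40 kinds. They were chosen by identifier from a list. No peak value entered that rule, but earlier results of these data were known when the genes were chosen. A peak belonged to a gene if the deposited peak list gave that gene as the nearest promoter or named it in the annotation of the peak. Of the 32 genes, 30 had at least 1 peak, and together they had 109 of the 49173 peaks. The peak list named 20804 genes in all.

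Binding was mapped by ChIP-seq, the sequencing of immunoprecipitated chromatin, in the leaves of Vitis vinifera plants that carried VlbZIP30, a basic leucine zipper transcription factor, fused to 3 FLAG tags and driven by the constitutive CaMV35S promoter. The plants of both libraries were 4 months old, overexpressed the tagged factor and had gone without water for 20 days. There was 1 anti-FLAG library and 1 control library, whose title says input and whose antibody field says IgG. The samples analysed here held no unstressed plants and no plants without the tag, so neither an effect of drought nor precipitation without the tagged protein was measured.

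Flavonoids are plant phenolics that include the flavonol sunscreens, the red anthocyanins and the proanthocyanidins, or condensed tannins. Chalcone synthase (CHS) and chalcone isomerase (CHI) build the common skeleton, and hydroxylases decorate it. The pathway then divides towards flavonols, towards the catechins that make up tannins, and towards anthocyanins, which are moved into the vacuole. MYB and bHLH proteins act with a WD40 protein in complexes that switch these genes on, and some MYB proteins repress them.

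Peaks were scored by the authors on a scale that the list does not name, so scores are used here only to rank peaks within the list. The median score of all peaks was 7.56, and the upper quartile began at 18.5. The class of a peak goes by its centre: a promoter peak has its centre from -1000 to 100 bp around a transcription start site (TSS). A peak can also span a TSS when its centre lies further off, and such peaks were counted separately, at the nearest gene of the peak. Each group is 1 library, without replicates, so the values below describe 1 peak list and no test was made.

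Peaks were found at nearly all of these genes, and more of their start sites lay under a peak than carried a promoter label. A promoter peak was present at 19 of the 32 genes (59.4%, 95% Wilson interval 42.3 to 74.5%). That is 63.3% of the 30 genes in the peak list, close to the 57.2% of all genes in the list. A peak spanned the TSS at 25 of the 30 genes (83.3%, interval 66.4 to 92.7%), against 59.7% of all genes in the list. One or the other was found at 27 of the 30 (90.0%, interval 74.4 to 96.5%), against 72.9% of all genes in the list. These differences were smaller or reversed with only peaks under 3 kb, a limit chosen after seeing the data. A peak then spanned the TSS at 18 of the 30 (60.0%), against 55.9% of all genes in the list. One or the other was found at 20 of the 30 (66.7%), against 69.1%. Genes left without a peak stayed in these shares: 28 of the 30 and 20601 of the 20804 genes still had one. Genes without a peak are not in the list, so the shares of all genes run over listed genes only. For the same reason, the 30 of 32 genes with any peak have no share of all genes to stand beside. The intervals of these shares treat genes as units and cover counting error only.

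The listed flavonoid genes also had more peaks each. They had a median of 3.5 peaks per gene (range 1 to 11), against 2 for all genes in the list. There were 9 genes with 5 or more peaks, which is 30.0%, against 13.2% of all genes in the list. A gene with more peaks has more chances of one at its TSS. Among genes with 3 or more peaks, a peak spanned the TSS at 21 of 22 flavonoid genes and at 73.1% of the 9005 listed genes. That comparison kept peaks of 3 kb or longer and did not match genes by their exact number of peaks. It therefore does not separate the share from peak length or peak number. The highest score of a flavonoid gene was in the upper quartile of peak scores at 20 of 30 genes (66.7%, 95% Wilson interval 48.8 to 80.8%), against 46.3% of all genes in the list. The median of these highest scores was 24.2 (range 3.64 to 106), against 16.4 for all genes in the list. The highest peak need not lie at the gene start. It spanned the TSS at 14 of the 30 genes (46.7%), against 42.4% of all genes in the list. At 12 of the 30 it was intergenic, and that share was not computed for all genes. A gene with more peaks also has more chances of a high score, and the highest scores were not compared at equal numbers of peaks.

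**Figure D1:**
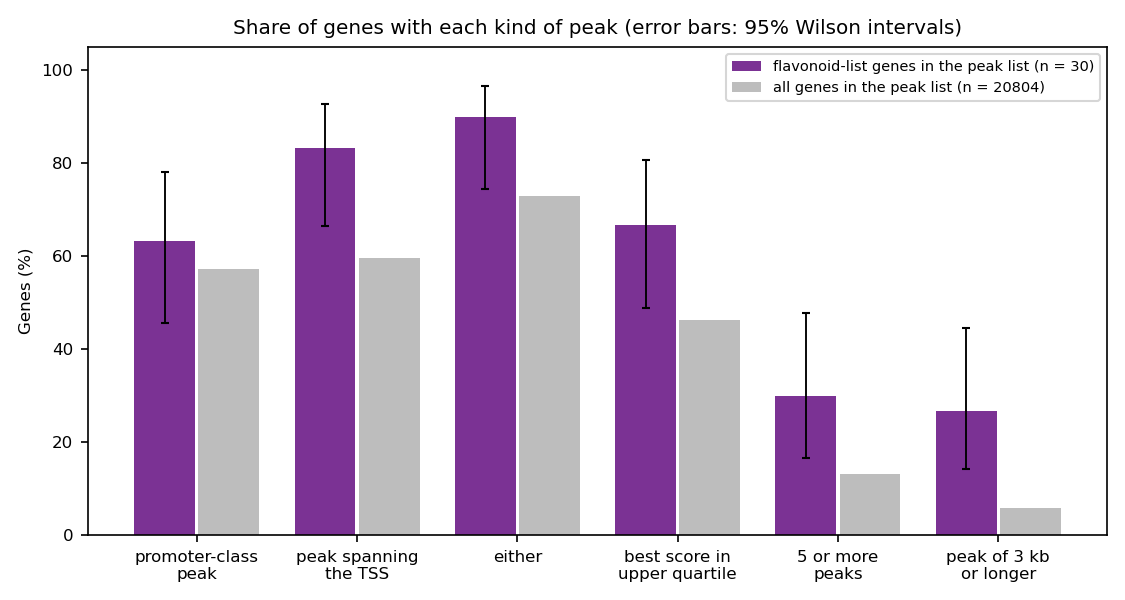
Bars give the percentage of the 30 listed flavonoid genes (purple) and of all 20804 listed genes (grey) that had each kind of peak, with 95% Wilson intervals for the flavonoid genes. The promoter-class bars are close, at 63.3% and 57.2%, while the bars for peaks spanning the TSS are 83.3% and 59.7% (60.0% and 55.9% with only peaks under 3 kb, not drawn).

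At 8 genes a peak spanned the TSS although no peak was classed as promoter there. They were 5 pathway genes (1 each of CHS, F3H and DFR, and both LAR genes) and 3 regulators. The spanning peak was classed as exon at 4, as intron at 2 and as intergenic at 2. These peaks were long, from 2203 to 6222 bp with a median of 3424 bp, whereas the other 17 TSS-spanning peaks of the flavonoid genes had a median of 767 bp. A peak centred more than 1000 bp upstream must be long to reach the TSS, as the 2 intergenic ones were. A centre just beyond 100 bp downstream does not require this. At VIT_16s0098g00870 and VIT_06s0004g00570, exon peaks of 973 and 999 bp spanned the TSS. The length difference thus follows only in part from the definition. The scores of the 8 peaks ran from 19.96 to 106, and all 8 were in the upper quartile of the list. So were 89.1% of the 951 other TSS-spanning peaks of another class that were at least as long as the shortest of the 8. Another class than promoter was given to 10 of the 25 TSS-spanning peaks of the flavonoid genes (40%). In the list it was given to 26.4% of the 12410 TSS-spanning peaks. No interval was computed for the share of the 25 peaks, so it is a description only.

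**Figure D2:**
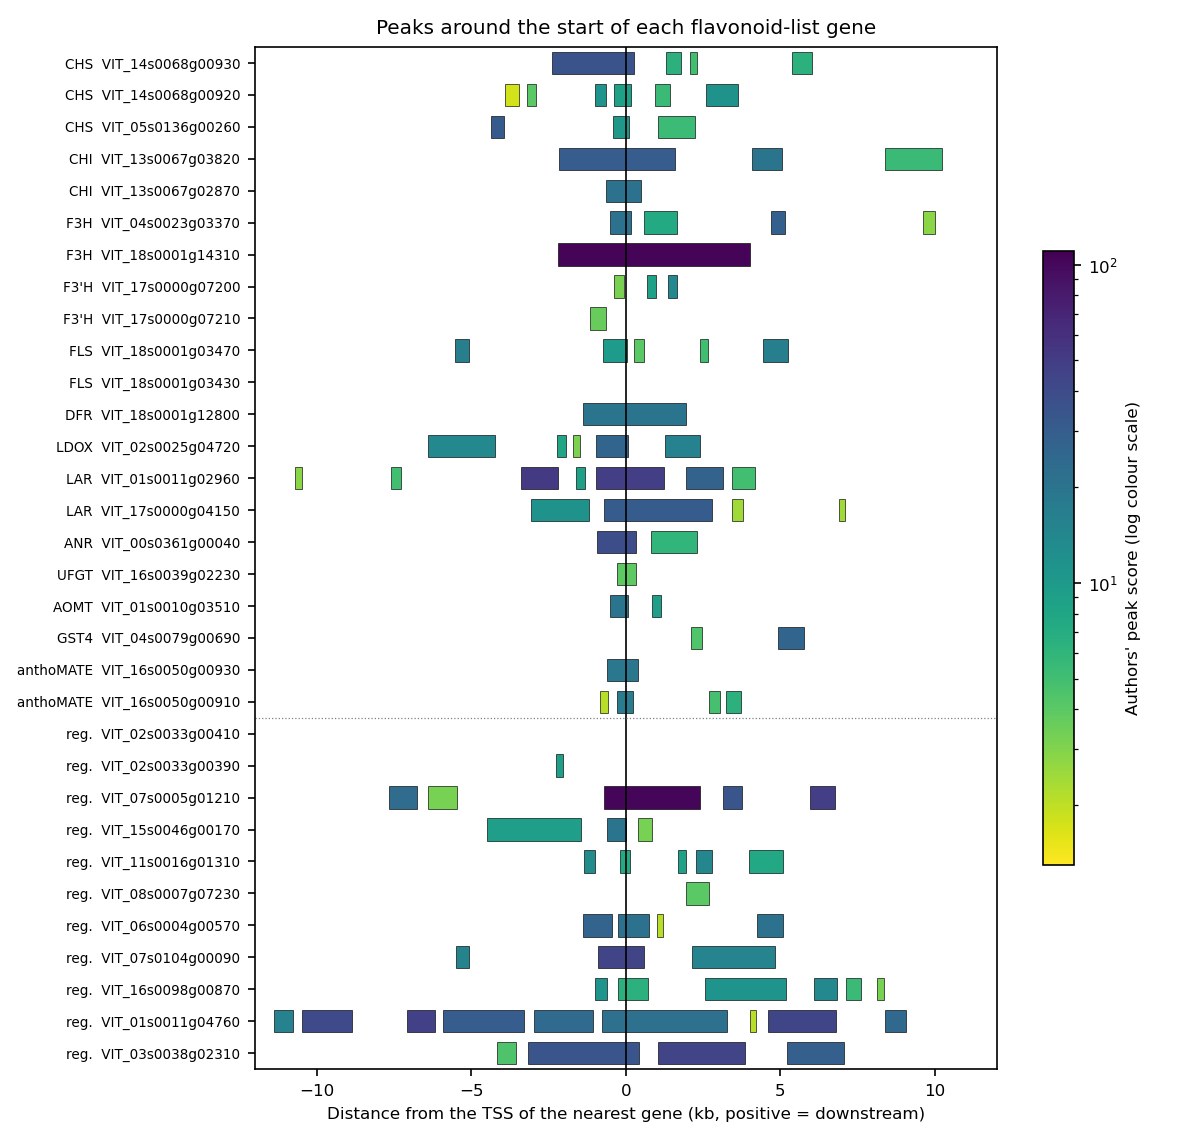
Each row is 1 gene, with pathway genes above the dotted line and regulators (reg.) below it. Bars show the extent of each peak in kb from the TSS of the gene, coloured by the authors' score, for the 101 peaks that reach within 12 kb and have the gene as nearest. Rows without a bar are the 2 genes with no peak, and bars cross the line at 0 in 25 rows.

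The first enzymes of the pathway had peaks at all 9 of their listed genes, with scores that differed widely between copies. CHS joins a phenylpropanoid starter to malonyl units and is the entry enzyme of the pathway. VIT_14s0068g00930, 1 of its 3 genes, had a peak of 2641 bp that scored 35.4 and reached from 2373 bp upstream of the TSS to 267 bp into the gene. Nearby on chromosome 14, the CHS gene VIT_14s0068g00920 had 2 promoter peaks, centred 830 and 106 bp upstream, which scored 11.0 and 8.64. The last, VIT_05s0136g00260 on chromosome 5, had a promoter peak of 10.5 centred 151 bp upstream and a stronger intergenic peak of 31.9 centred 4156 bp upstream. The strongest peak thus lay over the TSS at 1 CHS gene and away from it at the others, including a peak of 11.7 centred 3112 bp downstream of the TSS of VIT_14s0068g00920.

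CHI closes the chalcone into a flavanone, and both of its genes had a promoter peak that spanned the TSS. At VIT_13s0067g03820 it was 3754 bp long and scored 30.3. At VIT_13s0067g02870 it was the only peak, was 1126 bp long and scored 20.8. Both scores were in the upper quartile of the list.

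Flavanone 3-hydroxylase (F3H) makes dihydroflavonols, from which the later branches divide, and 1 of its genes held the highest-scoring peak of the whole set. This peak, at VIT_18s0001g14310, was 6222 bp long, on chromosome 18 from 12300885 to 12307106, and scored 106. It ranked 99th of 49173, so that 0.199% of peaks scored higher. It ran from 2192 bp upstream of the TSS to 4028 bp downstream of it, and its centre fell in intron 1 of 2. It was the only peak tied to the gene, and none of the 50 other peaks within 100 kb scored higher. The other F3H gene, VIT_04s0023g03370, had a promoter peak of 20.9 centred 173 bp upstream, a peak of 7.48 in its intron 2 of 2 and an intergenic peak of 28.7 centred 4928 bp downstream of the TSS.

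Flavonoid 3'-hydroxylase (F3'H) adds a hydroxyl group to the B ring and so sets the cyanidin-type pattern. Its 2 genes, whose peaks lay near each other on chromosome 17, had low-scoring promoter peaks. The promoter peak scored 3.16 at VIT_17s0000g07200 (centred 217 bp upstream) and 3.64 at VIT_17s0000g07210 (centred 900 bp upstream), at or below the lower quartile of the list, 3.64. Neither gene had a peak over its TSS, unlike the other 17 flavonoid genes with a promoter peak. VIT_17s0000g07200 had higher peaks inside the gene, of 8.68 in intron 1 and 13.6 in intron 2.

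Flavonol synthase (FLS) diverts dihydroflavonols to flavonols, and its 2 genes differed. VIT_18s0001g03470 had 5 peaks, of which the promoter peak, centred 350 bp upstream, scored 9.80. Its 2 intergenic peaks were higher, at 16.4 (5292 bp upstream) and 16.5 (4845 bp downstream of the TSS). VIT_18s0001g03430 had no peak.

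Dihydroflavonol reductase (DFR) and leucoanthocyanidin dioxygenase (LDOX) serve both anthocyanins and tannins, and both had a peak over the TSS. At the DFR gene, VIT_18s0001g12800, the only peak was 3328 bp long, scored 19.96 and was centred in exon 1 of 6, 277 bp downstream of the TSS. It reached 1386 bp upstream. At the LDOX gene, VIT_02s0025g04720, the promoter peak scored 26.2 and was centred 431 bp upstream. That gene had 3 further peaks upstream, of 3.12, 8.12 and 13.6, and a peak of 15.7 at the transcription termination site (TTS).

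The 3 genes of the tannin branch had high-scoring peaks across their start sites. Leucoanthocyanidin reductase (LAR) makes catechin and anthocyanidin reductase (ANR) makes epicatechin, the building blocks of proanthocyanidins. VIT_01s0011g02960, a LAR gene, had 7 peaks over 14.9 kb. The peak over its TSS was 2203 bp long and scored 49.1, and an intergenic peak centred 2791 bp upstream scored 53.0, so that 2 peaks were among the top 5% of the list (4.73% and 3.82% of all peaks scored higher). A peak of 27.1 lay downstream of the TSS, centred 2550 bp away and annotated to the TTS of the neighbouring VIT_01s0011g02950. At the other LAR gene, VIT_17s0000g04150, a peak of 3520 bp scored 31.0, was centred in exon 3 of 5 and reached 720 bp upstream of the TSS. The ANR gene, VIT_00s0361g00040 on the sequence named Un, had a promoter peak of 1254 bp that scored 38.9 and was centred 290 bp upstream. The highest scores of the 3 genes ran from 31.0 to 53.0, all in the upper quartile.

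The 2 genes that finish anthocyanins differed from each other. UDP-glucose flavonoid glucosyltransferase (UFGT) adds the glucose that makes an anthocyanin stable, and anthocyanin O-methyltransferase (AOMT) methylates the pigment. The UFGT gene, VIT_16s0039g02230, had 1 peak, which spanned the TSS but scored 3.92, with 72.9% of all peaks scoring higher. The AOMT gene, VIT_01s0010g03510, had a promoter peak of 19.97 centred 216 bp upstream, a peak of 9.26 in intron 2 of 4 and a peak of 5.12 at its TTS.

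Of the 3 genes for transport to the vacuole, both anthoMATE genes had a peak over the TSS and the GST4 gene had none. The anthoMATE proteins carry anthocyanins across the vacuolar membrane, and GST4 is a glutathione S-transferase that carries them in the cytoplasm. The promoter peak of VIT_16s0050g00930 scored 18.9 and was centred 98 bp upstream, while its highest peak, 22.2, lay 15189 bp upstream. VIT_16s0050g00910 had 2 promoter peaks, of 17.8 centred 23 bp upstream and of 2.09 centred 719 bp upstream. The GST4 gene, VIT_04s0079g00690, had a peak of 4.43 at the TTS and an intergenic peak of 26.2, both downstream of its TSS. Genes with 2 promoter peaks thus numbered 2 of the 19 flavonoid genes with a promoter peak (10.5%, interval 2.94 to 31.4%), against 4.03% of the 11907 such genes in the list.

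Among the 11 regulators, 10 had a peak and 8 had one over the TSS, 3 of these without a promoter label. Which of the 11 is a MYB, a bHLH or a WD40 gene is not given by the list or by the annotation used here, so they are given by identifier. VIT_07s0005g01210 held the second-highest peak of the set, with a score of 103 and rank 118 of 49173, on chromosome 7 from 3730490 to 3733578. It was 3089 bp long, reached 699 bp upstream of the TSS and was centred in intron 1 of 2. Of the 2765 peaks on chromosome 7, 2 scored higher. The gene had 4 more peaks, and those of 34.3 and 49.1 lay downstream of its TSS, so that 4 of its 5 peaks were in the upper quartile.

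VIT_01s0011g04760 had the most peaks, 11, spread over 30.1 kb of chromosome 1 (4308985 to 4339087), and 50.8% of that stretch lay under a peak. Of all genes in the list, 0.24% had 11 or more. Its peaks were 10 intergenic ones, 7 upstream and 3 downstream of the gene, and 1 of 4033 bp centred in exon 3 of 3 that scored 21.5 and spanned the TSS. The highest of the intergenic peaks scored 47.2 and was centred 6633 bp upstream, and 7 of the 11 were in the upper quartile.

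VIT_03s0038g02310 had a peak of 3609 bp over its TSS that scored 34.5 and extended 3169 bp upstream. A higher peak, of 45.4, was centred 2439 bp downstream of the TSS, and the peak beyond that scored 29.4. Together its 4 peaks covered 79.2% of an 11.2 kb stretch of chromosome 3, the highest share among flavonoid genes with 4 or more peaks.

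The 5 regulators with a promoter peak spanned a wide range of scores. VIT_07s0104g00090 had the highest promoter peak of the whole set, 45.4, which was 1516 bp long and centred 156 bp upstream of the TSS. VIT_06s0004g00570 had a promoter peak of 27.0 centred 911 bp upstream and a separate peak of 20.7 that spanned the TSS from exon 1. VIT_15s0046g00170 had a promoter peak of 19.96 centred 297 bp upstream, and VIT_16s0098g00870 had one of 11.1 centred 797 bp upstream beside a peak of 6.49 over the TSS. VIT_11s0016g01310 had a promoter peak of 7.56, at the list median, centred 17 bp upstream. Its other 4 peaks, in its flanks and at its TTS, scored 7.65 to 14.0.

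The remaining 3 regulators had no peak over the TSS. VIT_02s0033g00410 had no peak. VIT_02s0033g00390 had 1 intergenic peak of 9.21, centred 2143 bp upstream. VIT_08s0007g07230 had 1 peak of 4.06 at its TTS, and 42 of the 49 other peaks within 100 kb scored higher.

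**Figure D3:**
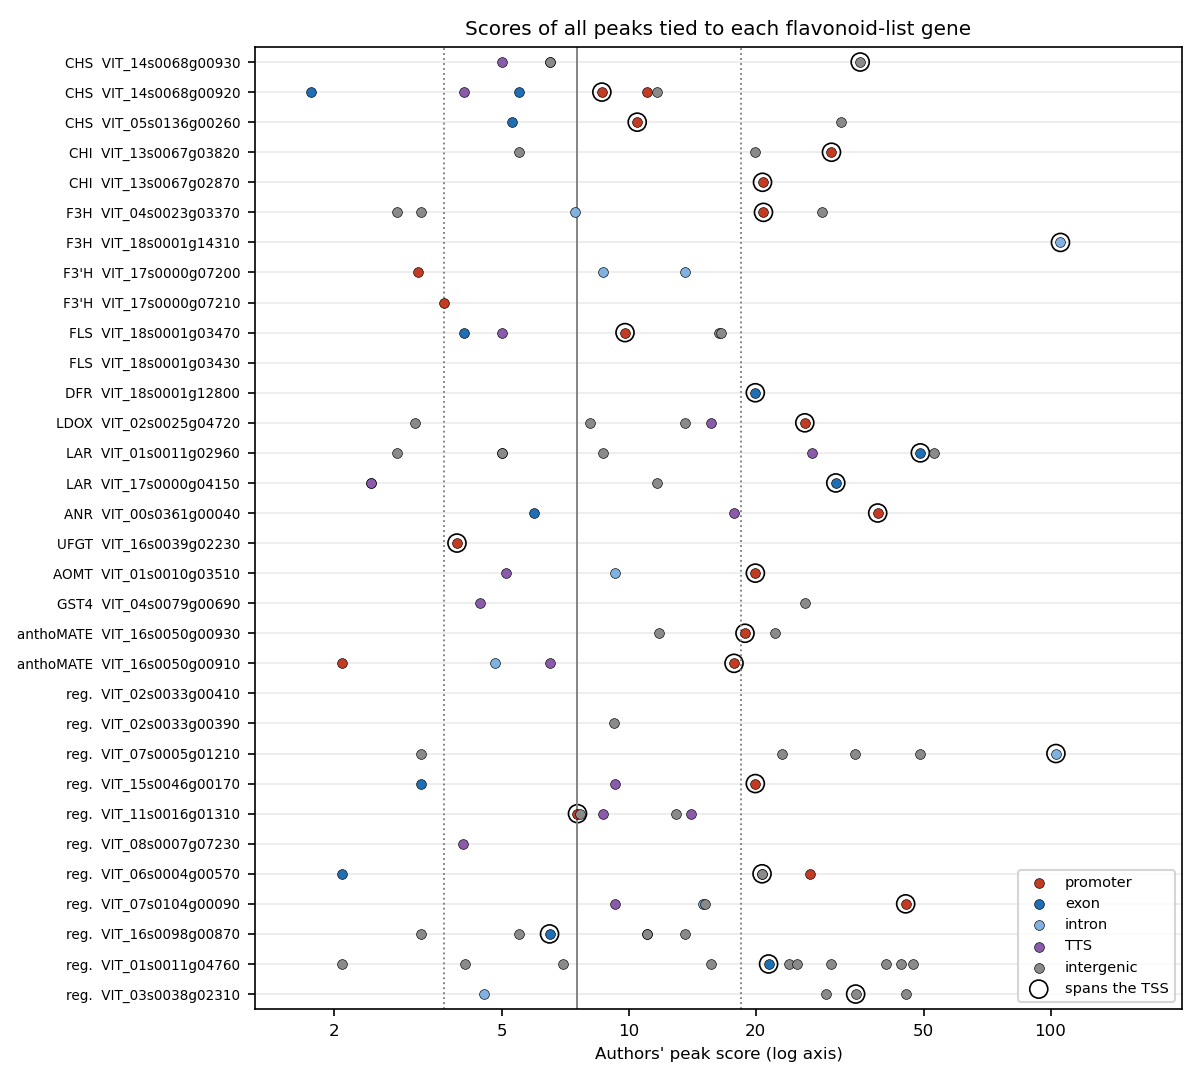
Points are the authors' scores (log axis) of all peaks tied to each gene, coloured by class, with a ring around peaks that span the TSS. The solid line is the median of the whole list (7.56) and the dotted lines are its quartiles (3.64 and 18.5). The points furthest right are the TSS-spanning intron peaks of VIT_18s0001g14310 (106) and VIT_07s0005g01210 (103).

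The peaks of the regulators lay more often between genes than those of the pathway genes. Of the 44 peaks of the regulators, 26 were intergenic (59.1%), against 22 of 65 for the pathway genes (33.8%) and 32.5% of the list. VIT_01s0011g04760 alone gave 10 of the 26. The highest score per gene had a median of 23.5 for the 10 regulators and of 24.2 for the 20 pathway genes with peaks. Members of one group share loci and nearby peaks, so these differences are descriptions.

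By class, the 109 flavonoid peaks were 44.0% intergenic, 19.3% promoter, 15.6% TTS, 11.9% exon and 9.17% intron, against 32.5%, 25.2%, 13.2%, 14.5% and 14.6% of the list. Their promoter peaks had a median score of 17.8 (n = 21, 95% interval of the median 8.64 to 20.9), against 12.8 in the list. Intergenic peaks had a median of 14.4 (n = 48), against 9.80 in the list. The 22 intergenic peaks downstream of a flavonoid gene had a median of 15.1 (interval 5.48 to 28.7), against 7.98 for downstream intergenic peaks in the list. The intervals for promoter and for downstream intergenic peaks enclose the list medians, so these medians are not separated from the list. Both intervals treat peaks as units, although 1 gene can give several. VIT_16s0098g00870 alone gave 4 of the 22 downstream intergenic peaks. The intervals therefore do not measure a spread between genes. The median centre of the flavonoid promoter peaks was at -217 bp relative to the TSS (range -911 to 26), against -166 bp for all promoter peaks. The quartiles of the list, -444 and -25 bp, enclose the flavonoid median.

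Score and length moved together, so peaks were also compared by length. The 109 flavonoid peaks had a median length of 642 bp and a median score of 11.1, against 517 bp and 7.56 for the list. Among peaks under 1 kb, the flavonoid median was 8.64 (n = 75, 95% interval of the median 5.48 to 11.0), against 5.48 in the list. Among peaks from 1 to 2 kb it was 19.3 (n = 18), against 19.8 in the list. The flavonoid median was thus above that of the list among short peaks, where the interval begins at the list median, and close to it among peaks of 1 to 2 kb. Among peaks from 2 to 3 kb it was 32.8 (n = 8), against 29.5 in the list, and among those of 3 kb or longer it was 30.6 (n = 8), against 38.2 in the list. Long peaks were frequent at these genes: 8 of 109 were 3 kb or longer (7.34%, interval 3.77 to 13.8%), against 2.44% of the list, and 7 of the 8 spanned the TSS of a flavonoid gene. These 8 peaks belonged to 8 genes, or 26.7% of the 30, against 5.91% of all genes in the list. Across the list 65.6% of peaks of 3 kb or longer spanned the TSS of their nearest gene. The intervals in this comparison by length also treat peaks as units, although 1 gene can give several.

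**Figure D4:**
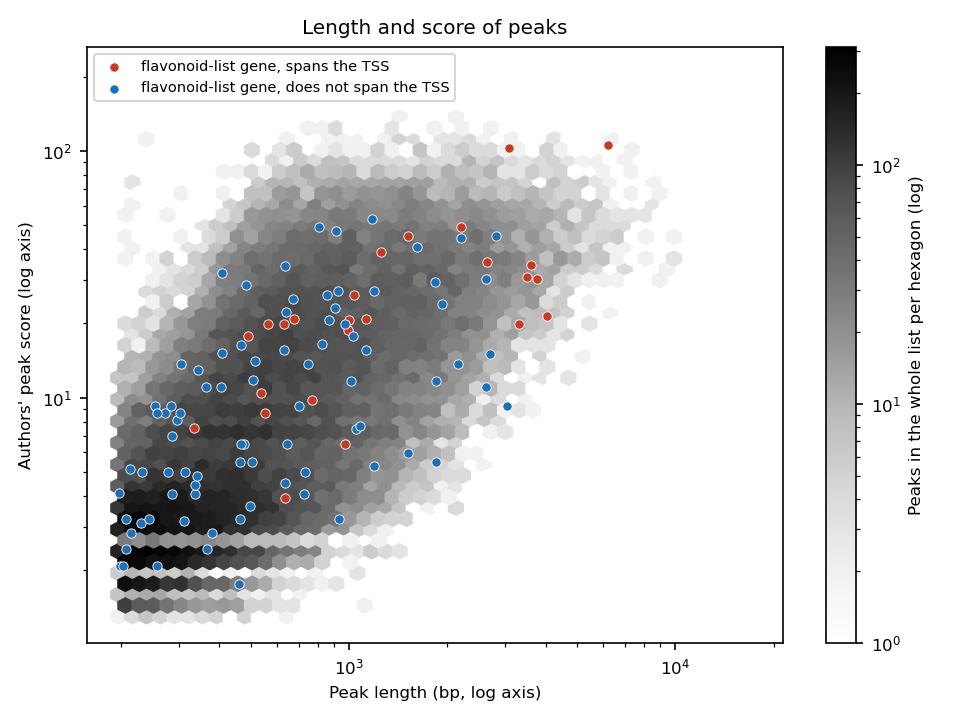
Peak length (bp, log axis) is plotted against the authors' score (log axis). Grey hexagons count all 49173 peaks, and points are flavonoid peaks that span the TSS (red) or do not (blue). The flavonoid points follow the grey cloud, and the 2 points above 100 are peaks of 3089 and 6222 bp.

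The surroundings of the highest peaks varied between the genes. Whether a nearby peak scores higher depends on the highest scores already given, so the next count is not a separate difference. No interval was computed for it. At 6 of the 30 genes no other peak within 100 kb of the highest one scored higher, against 10.9% of all genes in the list. These were VIT_05s0136g00260 (CHS), VIT_18s0001g14310 (F3H), VIT_17s0000g04150 (LAR), VIT_00s0361g00040 (ANR) and the regulators VIT_07s0005g01210 and VIT_07s0104g00090. The number of other peaks in such a stretch varied from 3 around the highest peak of VIT_02s0033g00390 to 82 around that of VIT_15s0046g00170. At VIT_05s0136g00260 only 6 other peaks lay that near, so the comparison there rests on few peaks.

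Some peaks could belong to a neighbouring gene. For 9 of the 109 peaks the gene in the annotation and the nearest gene were not the same. They include the peak of 17.8 at the TTS of the ANR gene, whose nearest start site belongs to VIT_00s0361g00050. Another is a peak of 3040 bp and score 9.26 that is upstream of VIT_15s0046g00170 and lies at the TTS of VIT_15s0046g00160. None of the 9 was a promoter peak or spanned the TSS of a flavonoid gene. The counts of promoter and TSS-spanning peaks therefore do not rest on these 9. Another 48 peaks are intergenic, have no gene in their annotation and are tied by the nearest TSS alone. Of these, 2 spanned the TSS. The farthest were centred 31297 bp downstream of the TSS of VIT_04s0023g03370 and 20927 bp upstream of that of VIT_01s0011g04760. Counts of peaks per gene, such as the 11 of VIT_01s0011g04760, depend on this rule and so on where the next gene lies.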

How the data were processed

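The authors deposited 1 peak list; the labels give 1 anti-FLAG and 1 control library, and the name of the list sets FLAG against input. The submitters' processing notes name BWA, MACS2 and HOMER without a role; versions, settings, genome build and gene models were not given in the sources used here. The columns are, per the file headers, position, score, annotation, signed distance to the nearest TSS and nearest gene. The deposited score has no named scale; its lowest value, 1.30142, lies just above 1.30103, which is -log10 of 0.05. Library depth is unknown. Coordinates are printed as deposited.

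The span of a peak around the TSS was computed from its distance and length, assuming that its centre is its midpoint. The code was tested on simulated peaks. Of the 32 identifiers, 0 matched the RefSeq gene table of 29591 genes. The classes (CHS to anthoMATE) follow the order in which the gene list names them, and the borders between classes were set from general knowledge of the pathway. No genome sequence was used. All 32 genes are accounted for, with values for those with a promoter peak or a highest score in the upper quartile. Genes, lists and alternatives were chosen with earlier results of these data known; the counts of TSS-spanning and of long peaks were added after the values were seen. Alternatives varied the score threshold, the field that ties peaks to genes, the promoter window, the point measured, peak length and the sequence Un. Tables were handled with pandas 2.3.3 and numpy 2.4.6 under Python 3.11.15, intervals came from scipy 1.17.1, and plots from matplotlib 3.10.9.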

Additional observations from a re-analysis of the deposited data

How the results depend on the processing

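Of 17 alternative values, 13 stayed within 1.5 times the count or within the 95% binomial interval of the median, and 4 moved. With peaks of the upper score quartile only, 10 of the 32 genes had a promoter peak instead of 19. That is 33.3% of the 30 listed ones, against 21.6% of all listed genes. The median distance of promoter peaks from the TSS was 0 bp from the nearest edge and -217 bp from the centre, since most of these peaks span the TSS. With peaks under 1 kb the median score was 8.64, and 14 genes (46.7% of the 30) had a promoter or TSS-spanning peak instead of 27, against 47.6% of all listed genes. With peaks under 3 kb 20 genes did (66.7%), against 69.1%, so the excess of 90.0% over 72.9% did not hold without long peaks. Both length limits were chosen after seeing the data. Any peak overlapping the promoter window was found at 27 genes (90.0% of the 30) and at 76.7% of all listed genes. No paired analysis was possible because the groups hold a single library each, and for the same reason no replicate could be left out. Depth is unknown, so absence from the list does not show that a gene was not bound.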
